A study of Homo sapiens with 10 samples.

Results

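Punicalagin, an ellagitannin of pomegranate, was set directly against myricetin, a flavonol found in many fruits and leaves, in THP-1 macrophages. The arrays were chosen by their treatment labels, which gave 3 punicalagin arrays and 2 myricetin arrays, 5 of the 10 arrays of the series. THP-1, a line grown from a human monocytic leukaemia, becomes adherent and macrophage-like when it is given the phorbol ester PMA. All cells received PMA for 24 h and then a compound or the solvent DMSO for 24 h, and the study concerns the action of punicalagin on genes of atherosclerosis. Each array is Affymetrix Human Gene 1.0 ST and gives the log2 intensity of a transcript.

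The punicalagin arrays came from cells of passages 6, 7 and 8, and the dose was 10 µM. The myricetin arrays came from passages 7 and 8, and the dose of myricetin is not given in the sources used here, so it cannot be said that the doses match. All groups were the same THP-1 line under the same PMA treatment, and the labels name no genetic change. The 3 DMSO arrays, of passages 6, 7 and 8, did not enter the difference and are shown beside it as the background level. They and the 2 quercetin arrays of passages 7 and 8 entered the estimate of the spread only. Throughout, values are listed in the order of these passages, and a difference is punicalagin minus myricetin on the log2 scale with the standard error of limma.

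The endoplasmic reticulum (ER) folds secreted and membrane proteins with the help of chaperones, lectins and disulphide isomerases, and cells raise the genes for these proteins when the folding load grows. Lysosomes break down lipoproteins and other cargo with acid hydrolases, and export the freed cholesterol. Macrophages that take up lipoproteins through scavenger receptors rely on both compartments, and the lipid-laden macrophage is a hallmark of the atherosclerotic plaque.

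The arrays were alike in their distribution of intensities, with array medians between 5.14 and 5.25. The mean level of 10 macrophage markers lay between 9.50 and 10.24 on the punicalagin and myricetin arrays and between 9.33 and 9.59 on the DMSO arrays. Lists of T cell, B cell, erythroid, endothelial, fibroblast and epithelial markers had mean levels between 3.50 and 5.01 on these 8 arrays. No macrophage marker passed the threshold between the compounds, and LYZ, the lysozyme gene, had the largest difference of them at 1.00 (adjusted p = 0.221). GAPDH, often used as a reference gene, read 11.03, 11.94 and 10.86 with punicalagin and 11.80 and 11.78 with myricetin, and the groups overlapped. In bulk RNA, fewer cells of a kind and less RNA per cell cannot be told apart. The labels call the punicalagin arrays biological replicates, but whether each passage was a separate culture treated on its own day is not given in the sources used here.

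Of 18417 genes tested, 128 were higher with punicalagin at an adjusted p under 0.05 (0.695%) and 1 was lower (0.00543%). The difference of the 128 genes ran from 0.72 to 1.84 with a median of 1.05, and 74 of them differed at least 2-fold. The median over all genes was -0.05. In all 128 genes every punicalagin array lay above both myricetin arrays, as it did in 11.6% of all genes tested. The reverse order, every punicalagin array below both myricetin arrays, was met in 16% of all genes. On 120 of the 128 genes the punicalagin arrays also lay above every DMSO array. The myricetin arrays overlapped the DMSO arrays on 60 of them, lay above all DMSO arrays on 37 and below all on 31. Over all 18417 genes, the punicalagin arrays lay above every DMSO array on 1620. The myricetin arrays overlapped the DMSO arrays on 14073 of all genes, lay above all on 2338 and below all on 2006. The median of the 128 genes relative to DMSO was 0.98 for punicalagin and -0.04 for myricetin, and both values rest on the same DMSO arrays. The 128 genes were also selected on these same punicalagin and myricetin arrays. That selection by itself favours a high first median and a low second one, and bears on the counts against DMSO as well.

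These calls rested on few arrays. No gene passed limma's threshold without the punicalagin array of passage 6, without that of passage 7, or without either myricetin array. In these 4 fits 1691, 1557, 1214 and 1018 genes had an unadjusted p under 0.05. Without the punicalagin array of passage 8, 421 genes were higher and 11 lower. With the passage as a block, 48 genes were higher and 3 lower, and 45 of these were among the 128. On the 5 arrays alone, 149 were higher and 2 lower, of which 108 were among the 128. No gene passed when the clusters without a symbol were tested as well, where 2445 clusters had an unadjusted p under 0.05. The directions described next therefore hold for these arrays, and each count of calls below falls to 0 in those 4 fits.

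The chaperones of the ER formed the group with the most calls. Of 21 measured genes, 11 were higher with punicalagin and none lower, with a median difference of 0.87. Their mean level was 9.05, 9.23 and 8.87 on the punicalagin arrays, 8.32 and 8.17 on the myricetin arrays, and 8.28, 8.16 and 8.16 on the DMSO arrays. Every punicalagin array thus lay above the others, and the myricetin arrays lay close to the DMSO arrays. HSPA5 (BiP), the main Hsp70 chaperone of the ER, read 11.25, 11.35 and 10.86 with punicalagin, 9.90 and 9.63 with myricetin, and 9.98, 9.73 and 9.65 with DMSO. It was high on all punicalagin arrays, least so at passage 8, and the myricetin arrays fell within the range of DMSO or just under it. The difference was 1.39 ± 0.20 (SE), or 2.62-fold (adjusted p = 0.0149).

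The disulphide isomerases showed the same order of groups. PDIA4 read 9.77, 9.80 and 9.54 with punicalagin, 8.40 and 8.02 with myricetin, and 8.38, 8.18 and 8.29 with DMSO, a difference of 1.49 ± 0.18 (adjusted p = 0.0149). PDIA6 read 10.67, 10.76 and 10.60 with punicalagin, 9.63 and 9.27 with myricetin, and 9.53, 9.34 and 9.61 with DMSO, a difference of 1.22 ± 0.17 (adjusted p = 0.0149). DNAJB11, a co-chaperone of BiP, read 9.22, 9.08 and 9.14 with punicalagin, 8.18 and 7.94 with myricetin, and 8.26, 8.21 and 8.39 with DMSO, a difference of 1.09 ± 0.15 (adjusted p = 0.0149). In these 3 genes no punicalagin array came within the range of the other groups, while myricetin overlapped with DMSO in PDIA4 and PDIA6 and lay below every DMSO array in DNAJB11. HSPA5, PDIA4, PDIA6 and DNAJB11 were the 4 members that also passed with the passage as a block.

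The other 7 members past the threshold lost the call with that block. They were the lectin chaperones CALR (1.03 ± 0.16, adjusted p = 0.0177, 0.0526 with the block) and CANX (0.87 ± 0.15, 0.0240 and 0.0684), HSP90B1 (0.92 ± 0.16, 0.0253 and 0.0585), the Hsp70-like HYOU1 (0.98), the degradation adapter SEL1L (0.95), the co-chaperone DNAJC3 (0.87) and the secreted factor MANF (0.85). XBP1, which encodes a transcription factor of the unfolded protein response, had a difference of 0.98 and did not pass (adjusted p = 0.349). Its difference was 1.69 at passage 7 and 0.04 at passage 8. Of the cytosolic heat shock chaperones, 17 genes with a median difference of -0.17, none passed. Among 32 targets of ATF4 and tRNA synthetases none passed either, and their median difference was 0.21 in the fit, 0.94 at passage 7 and -0.62 at passage 8.

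The promoters of the ER group are shown as a description of their sequence. The ER stress response element, CCAAT and CCACG with 9 bases of any kind between them, was searched on both strands in the RefSeq promoter windows (GRCh38.p14, from 250 bases before to 50 after each annotated start). It was found in 27 of 35116 windows (0.0769%), in 19 of 14239 tested genes with a window (0.133%), and in 7 of the 21 genes of the ER group (33.3%). These include 5 of the 11 members past the threshold, namely HSPA5, PDIA6, HSP90B1, CANX and CALR. Of all genes higher with punicalagin, 104 had a window and 5 held the motif (4.81%). Stretches of 4 of them follow, 5′ to 3′ on the strand of the gene, and the capitals mark the motif, which in CALR stands on the opposite strand. They lie on the minus strand at chr9:125241351-125241449 (HSPA5) and chr2:10812813-10812911 (PDIA6), and on the plus strand at chr12:103930176-103930274 (HSP90B1) and chr19:12938359-12938442 (CALR).
HSPA5: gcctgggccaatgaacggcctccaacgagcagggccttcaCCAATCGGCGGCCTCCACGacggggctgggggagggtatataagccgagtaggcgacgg
PDIA6: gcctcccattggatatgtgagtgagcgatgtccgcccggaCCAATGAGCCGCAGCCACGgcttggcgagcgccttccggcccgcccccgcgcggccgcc
HSP90B1: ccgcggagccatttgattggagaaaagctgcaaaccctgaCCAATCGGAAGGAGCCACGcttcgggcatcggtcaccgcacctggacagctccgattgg
CALR: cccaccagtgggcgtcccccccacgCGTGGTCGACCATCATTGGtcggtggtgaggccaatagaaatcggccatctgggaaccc

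The motif begins at position -66 from the start in HSPA5, at -86 in PDIA6, at -194 in HSP90B1 and at -225 in CALR. In HSP90B1 another copy begins at -89 on the opposite strand. PDIA4 and DNAJB11, past the threshold as well, did not hold these letters in their windows. A match of letters is a description of the sequence, and binding was not measured. The ER group was listed by function, but with earlier results of these data known. The share of its promoters with the motif is therefore not independent of these arrays. Whether the motif has a part in the differences was not tested.

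**Figure D1:**
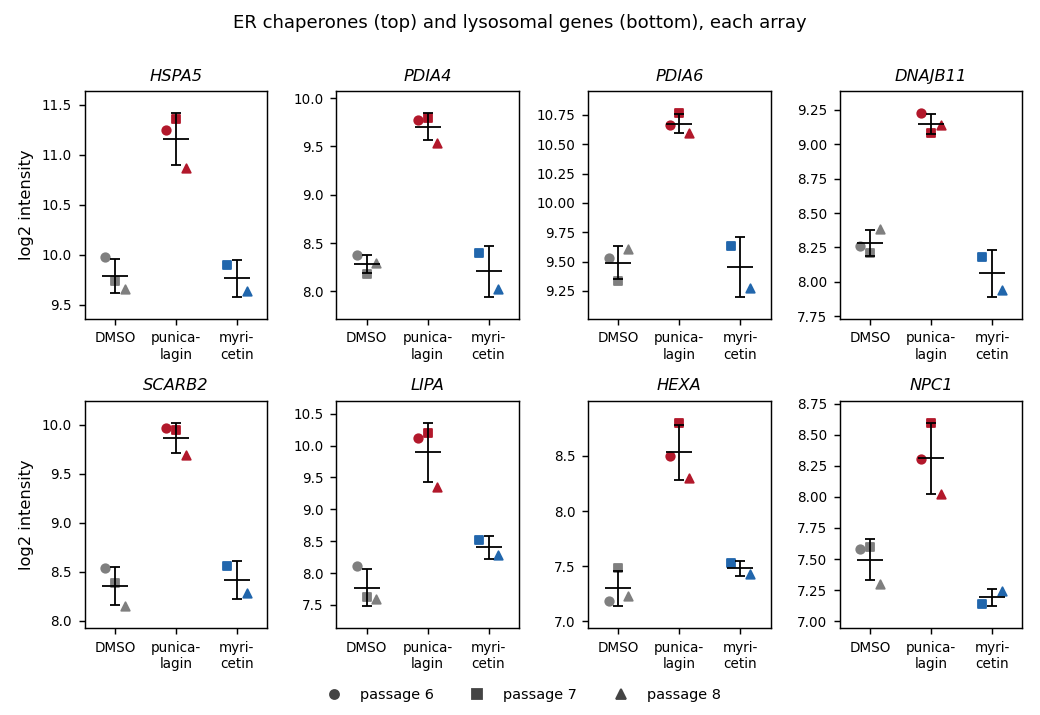
Log2 intensity (vertical axes, each panel with its own range) of 4 ER chaperone genes and 4 lysosomal genes on the DMSO, punicalagin and myricetin arrays. Each point is an array with its shape giving the passage, the horizontal bar is the mean and the error bar the SD (n = 3, 3 and 2). In HSPA5 the punicalagin arrays sit between 10.86 and 11.35 and the myricetin arrays at 9.90 and 9.63.

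Genes of the following steps of secretion were counted in a group that was put together after the values were seen, so its count is a description. Of 52 genes for translocation into the ER, N-glycosylation and cargo receptors, 8 were higher with punicalagin and none lower, and the median difference was 0.62. RPN1, a subunit of the oligosaccharyltransferase that attaches sugar chains to new proteins, read 9.42, 9.72 and 9.21 with punicalagin, 8.26 and 8.10 with myricetin, and 8.30, 8.10 and 8.01 with DMSO. The punicalagin arrays were high throughout and the difference was 1.27 ± 0.18 (adjusted p = 0.0149). Its partner subunits RPN2 and DDOST (0.94 and 1.12), the receptor subunit SRPRB (1.32), the signal peptidase subunit SPCS2 (1.13), the folding sensor UGGT1 (1.07) and the cargo receptors TMED9 and TMED10 (1.20 and 0.97) also passed, and RPN1 alone of the 8 passed with the passage block. TMED10 shares sequence with the pseudogene TMED10P1, which was called too (1.02, adjusted p = 0.0531 with the block), and probes may not separate them. Promoter windows were available for 42 of the 52 members and 6 of the 8 calls, and none of these windows held the ER stress response element.

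Lysosomal genes were the next group by number of calls. Of 30 measured genes, 8 were higher with punicalagin and none lower, with a median difference of 0.73. A positive difference was found in 27 of the 30, against 7098 of all 18417 genes. The mean level was 9.10, 9.34 and 8.81 with punicalagin, 8.45 and 8.44 with myricetin, and 8.53, 8.31 and 8.22 with DMSO. The punicalagin arrays lay above the others, and the gap was widest at passage 7. The median difference over the 30 genes was 0.97 at passage 7 and 0.41 at passage 8.

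HEXA, the alpha subunit of a hexosaminidase that degrades gangliosides, read 8.50, 8.80 and 8.30 with punicalagin, 7.53 and 7.43 with myricetin, and 7.19, 7.48 and 7.23 with DMSO. The punicalagin arrays stood above both other groups, which overlapped with each other. The difference was 1.05 ± 0.17 (adjusted p = 0.0201), and it was the only member that passed with the passage block (0.0454). NEU1, the lysosomal sialidase, read 9.73, 10.03 and 9.21 with punicalagin and 8.49 and 8.43 with myricetin. PSAP, the precursor of the saposins that help hydrolases reach lipids, read 11.37, 11.57 and 10.82 with punicalagin and 10.04 and 10.09 with myricetin. The DMSO arrays read 8.92, 8.54 and 8.51 for NEU1 and 10.67, 10.36 and 10.14 for PSAP. In both genes the passage 8 array was the lowest of the punicalagin arrays, still above both myricetin arrays and every DMSO array. Both myricetin arrays lay below every DMSO array in these genes. Differences were 1.20 ± 0.22 for NEU1 (adjusted p = 0.0337, 0.0709 with the block) and 1.19 ± 0.22 for PSAP (0.0337 and 0.0691).

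CD63, a tetraspanin of late endosomes, read 11.88, 11.73 and 11.95 with punicalagin, 10.90 and 10.61 with myricetin, and 10.86, 10.99 and 10.33 with DMSO. It was highest at passage 8, unlike NEU1 and PSAP, and its difference was 1.10 ± 0.20 (adjusted p = 0.0320, 0.0762 with the block). The membrane proteins LAMP1 and LAMP2 (0.99 and 0.98), the protease CTSZ (0.82) and the ceramidase ASAH1 (0.78) were the remaining calls. Of the proton pump that acidifies the lysosome, the 4 subunits in this group did not pass, with differences of 0.41 for ATP6V1H, 0.05 for ATP6V0D2, -0.04 for ATP6V1A and -0.15 for ATP6V0D1. Its accessory subunit ATP6AP2, outside the group and named after its value was seen, was higher by 1.22 (adjusted p = 0.0149, 0.0427 with the block). TFEB, a transcription factor for lysosomal genes, had a difference of -0.19 (adjusted p = 0.837). The core letters of its binding motif, TCACGTGA, which read the same on both strands, were in 344 promoter windows (0.98%), in 244 of 14239 tested genes (1.71%) and in 5 of the 19 lysosomal genes with a window. Among the called lysosomal genes with a window the motif was in 1 of 4, LAMP1, where copies begin at -29 and at -2 from its start. The copy at -2 runs past the start and is not marked. The copy at -29 lies on the plus strand of chr13:113297170-113297238, and this stretch is shown with that copy in capitals.
LAMP1: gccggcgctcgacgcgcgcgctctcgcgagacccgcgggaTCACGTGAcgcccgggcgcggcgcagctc

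Proteins that carry cargo or cholesterol through the lysosome were found in other groups. SCARB2 (LIMP-2), which brings glucocerebrosidase to the lysosome, read 9.96, 9.95 and 9.69 with punicalagin, 8.56 and 8.28 with myricetin, and 8.54, 8.39 and 8.15 with DMSO. LIPA, the acid lipase that frees cholesterol from lipoprotein esters, read 10.12, 10.20 and 9.36 with punicalagin, 8.52 and 8.28 with myricetin, and 8.11, 7.62 and 7.59 with DMSO. NPC1, which exports that cholesterol, read 8.31, 8.60 and 8.03 with punicalagin, 7.14 and 7.24 with myricetin, and 7.58, 7.60 and 7.30 with DMSO. All 3 genes were high on every punicalagin array. Myricetin arrays lay within or just above the DMSO range for SCARB2, above it for LIPA and below it for NPC1. Differences were 1.45 ± 0.18 for SCARB2 (adjusted p = 0.0149), 1.49 ± 0.25 for LIPA (0.0211) and 1.12 ± 0.18 for NPC1 (0.0171), and all 3 passed with the block. The receptors that sort hydrolases by their mannose 6-phosphate tag, IGF2R and M6PR, were higher by 1.16 and 0.86, and were chosen for mention after their values were seen. M6PR lost the call with the block (0.0558).

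In sterol synthesis, 3 of 17 genes were higher with punicalagin and none lower, with a median difference of 0.37. EBP, the sterol isomerase, read 8.89, 9.12 and 8.30 with punicalagin, 7.41 and 7.25 with myricetin, and 7.09, 7.04 and 6.89 with DMSO. CYP51A1, the lanosterol demethylase, read 9.90, 10.04 and 9.59 with punicalagin, 8.76 and 8.37 with myricetin, and 8.00, 7.80 and 8.25 with DMSO. SC5D, the sterol desaturase, read 8.25, 8.32 and 7.48 with punicalagin and 6.99 and 6.61 with myricetin. In EBP and CYP51A1 the myricetin arrays stood between DMSO and punicalagin. In all 3 genes the compounds did not overlap, as in all 128 calls. Differences were 1.44 ± 0.21 for EBP (adjusted p = 0.0156), 1.28 ± 0.20 for CYP51A1 (0.0178, 0.0552 with the block) and 1.22 ± 0.25 for SC5D (0.0481, 0.105 with the block).

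The other 14 genes of sterol synthesis did not pass, and the largest difference of the 17, 1.45, was among them. Of the 17 differences 12 were positive and 5 negative, against 7098 and 11319 over all genes. HMGCS1, which makes the substrate of the pathway's control point, had a difference of 0.37 (adjusted p = 0.705), IDI1 of -0.05 and LSS of -0.11. Among 17 genes that control or share the sterol response, NPC1 and the fatty acid elongase ELOVL5 (0.73 ± 0.14, adjusted p = 0.0422, 0.0882 with the block) passed. Of 14 genes of the oxysterol receptor pathway, 1 passed: APOC1, an apolipoprotein, read 6.87, 6.89 and 6.51 with punicalagin, 5.36 and 5.73 with myricetin, and 4.88, 4.79 and 4.77 with DMSO. Its myricetin arrays lay between DMSO and punicalagin, with a difference of 1.21 ± 0.23 (adjusted p = 0.0351, 0.0727 with the block). ABCA1 and ABCG1, the exporters of cholesterol, had differences of 0.45 and 0.26 and did not pass.

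Receptors for lipoproteins and modified lipids separated in part. Of 17 genes, 3 were higher with punicalagin (SCARB2, LRP1 and CD163), none was lower and the median difference was 0.71. LRP1, an endocytic receptor for apolipoprotein E and proteases, read 8.37, 8.70 and 8.31 with punicalagin, 7.11 and 7.14 with myricetin, and 6.08, 6.22 and 6.20 with DMSO. The groups formed 3 levels with no overlap, and the difference between the compounds was 1.33 ± 0.16, or 2.52-fold (adjusted p = 0.0149). CD163, the scavenger receptor for haemoglobin, read 6.07, 6.43 and 5.73 with punicalagin, 5.08 and 5.13 with myricetin, and 4.18, 4.41 and 4.0 with DMSO. It had the same order with a smaller step, 0.98 ± 0.20, and lay at the threshold (adjusted p = 0.0498, 0.0823 with the block).

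For the lipid receptor genes that stood far above DMSO with both compounds, the difference between the compounds was small beside that step. CD36, the receptor for oxidised lipoproteins and fatty acids, read 10.52, 10.61 and 10.32 with punicalagin, 9.60 and 9.63 with myricetin, and 6.66, 5.54 and 6.29 with DMSO. MSR1, the class A scavenger receptor, read 11.16, 11.05 and 10.97 with punicalagin, 10.43 and 10.23 with myricetin, and 7.88, 6.73 and 6.45 with DMSO. In both genes the compounds did not overlap with each other, and all their arrays were above every DMSO array. The difference was 0.87 in CD36 (95% interval 0.32 to 1.42, adjusted p = 0.168) and 0.73 in MSR1 (0.05 to 1.41, adjusted p = 0.481). With the spread taken from the 5 arrays alone CD36 passed (adjusted p = 0.0324) and MSR1 had an adjusted p of 0.0528. The DMSO arrays were spread more widely than the treated arrays in both genes, and they entered the spread of the main test.

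The receptors that respond to lipids inside the cell were closer still. NR1H3, the oxysterol receptor LXR alpha, read 6.66, 6.57 and 6.72 with punicalagin, 6.57 and 6.68 with myricetin, and 5.38, 5.43 and 5.67 with DMSO. The compounds overlapped fully, and the difference was 0.03 with an interval from -0.27 to 0.33. PPARG, the fatty acid sensor of the nucleus, read 8.19, 8.20 and 8.24 with punicalagin and 7.99 and 7.88 with myricetin, a difference of 0.27 (-0.03 to 0.58). TLR4, the endotoxin receptor, had a difference of 0.42 (0.07 to 0.78) and TRAF1, an adapter of the tumour necrosis factor receptors, of -0.48 (-0.89 to -0.07). None of these 4 passed, so of the 7 receptors in the study's docking, which the study chose from its arrays, LRP1 alone differed between the compounds by the main test. A p above the threshold does not show that the compounds act alike.

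FABP4 and LPL were added after their values were seen. FABP4, the fatty acid carrier of adipocytes and macrophages, read 8.78, 8.85 and 9.10 with punicalagin, 8.51 and 8.73 with myricetin, and 5.22, 2.90 and 2.73 with DMSO. Its difference between the compounds was 0.29, with an interval from -0.88 to 1.46. LPL, lipoprotein lipase, read 11.04, 11.06 and 10.80 with punicalagin, 9.74 and 9.47 with myricetin, and 8.36, 7.53 and 7.10 with DMSO. Its myricetin arrays stood between the other groups, and the difference of 1.36 ± 0.28 missed the threshold (adjusted p = 0.0510) and passed on the 5 arrays alone (0.0128).

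**Figure D2:**
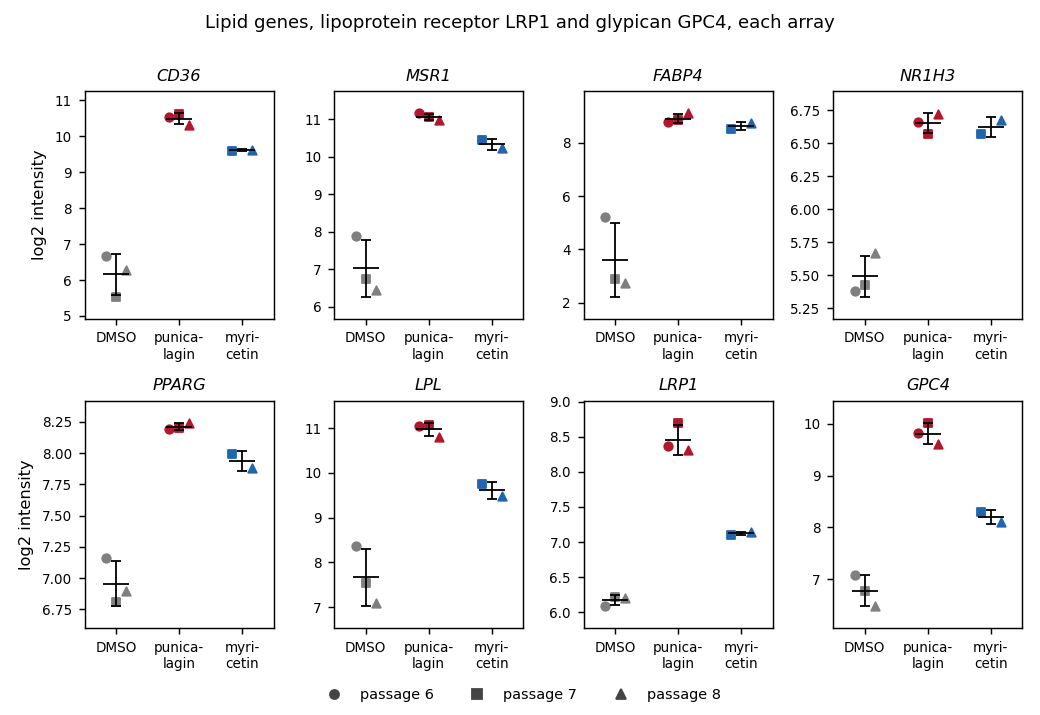
Log2 intensity (vertical axes, each panel with its own range) of 8 genes of lipid uptake, lipid sensing and the cell surface on the DMSO, punicalagin and myricetin arrays. Points are arrays with the shape giving the passage, the horizontal bar is the mean and the error bar the SD (n = 3, 3 and 2). NR1H3 overlaps between the compounds, while LRP1 sits between 8.31 and 8.70 with punicalagin and at 7.11 and 7.14 with myricetin.

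Matrix and adhesion genes made up a further group. Of 34 matrix and proteoglycan genes, 6 were higher with punicalagin and none lower, though the median difference over the list was 0.17. GPC4, a glypican that carries heparan sulphate on the cell surface, read 9.82, 10.02 and 9.60 with punicalagin, 8.29 and 8.10 with myricetin, and 7.08, 6.77 and 6.49 with DMSO. It formed 3 separate levels, and the compounds differed by 1.61 ± 0.20, or 3.06-fold (adjusted p = 0.0149). LAMC1, a laminin chain of basement membranes, read 8.89, 8.96 and 8.92 with punicalagin, 7.82 and 7.70 with myricetin, and 7.79, 8.19 and 8.12 with DMSO. The punicalagin arrays of LAMC1 were high and nearly equal, and the difference was 1.16 ± 0.16 (adjusted p = 0.0149).

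The collagen chain COL4A1 read 6.51, 6.59 and 6.51 with punicalagin, 5.44 and 5.28 with myricetin, and 5.0, 4.56 and 4.57 with DMSO, a difference of 1.18 ± 0.18 (adjusted p = 0.0166). FBN2, fibrillin-2 of elastic microfibrils, read 7.36, 7.56 and 7.47 with punicalagin, 6.30 and 6.05 with myricetin, and 6.17, 6.82 and 6.94 with DMSO, a difference of 1.29 ± 0.22 (adjusted p = 0.0213). Myricetin arrays were above DMSO for COL4A1 and around the lower end of DMSO for FBN2. GPC4, LAMC1, COL4A1 and FBN2 passed with the passage block, and COL4A2 (1.14) and the syndecan SDC2 (0.79) did not.

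Of 25 integrins and adhesion genes, 2 were higher with punicalagin, and the median difference was 0.60. ITGB1, the beta-1 chain shared by many integrins, read 8.79, 8.62 and 8.52 with punicalagin, 7.64 and 7.56 with myricetin, and 8.01, 8.12 and 7.91 with DMSO. The myricetin arrays lay below all DMSO arrays and the punicalagin arrays above them, and the difference was 1.04 ± 0.14 (adjusted p = 0.0149). ALCAM, an adhesion molecule of leukocytes, differed by 1.01 ± 0.15 (adjusted p = 0.0156). Of 24 metalloproteinases and inhibitors, 2 were higher, namely the inhibitor TIMP2 (1.16 ± 0.18, adjusted p = 0.0162) and the protease ADAMTS1 (1.12 ± 0.15, adjusted p = 0.0149).

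The 15 largest rises among the calls with the same sign at passages 7 and 8 held GPC4, PDIA4, LIPA, SCARB2, EBP, HSPA5 and LRP1 from the groups above and 8 others. GPC3, another glypican, read 7.73, 8.00 and 6.63 with punicalagin, 5.79 and 5.44 with myricetin, and 6.67, 6.16 and 5.88 with DMSO. GPAT3, an acyltransferase of triglyceride synthesis, read 7.18, 7.56 and 7.18 with punicalagin, 5.67 and 5.28 with myricetin, and 6.55, 6.76 and 5.71 with DMSO. CPE, carboxypeptidase E of the secretory pathway, read 6.56, 6.88 and 5.86 with punicalagin, 4.73 and 4.54 with myricetin, and 5.16, 4.86 and 4.96 with DMSO. In these 3 genes both myricetin arrays lay below every DMSO array, and the punicalagin array of passage 8 was the lowest of its group in GPC3 and CPE. GPC3 overlapped with DMSO on its passage 8 array. The differences were 1.84 ± 0.35 for GPC3 (adjusted p = 0.0379, 0.0612 with the block), 1.83 ± 0.27 for GPAT3 (0.0156) and 1.79 ± 0.26 for CPE (0.0149).

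ATP1B1, the beta subunit of the sodium pump, read 8.28, 8.43 and 7.87 with punicalagin, 6.85 and 6.39 with myricetin, and 6.96, 6.78 and 6.64 with DMSO, a difference of 1.57 ± 0.21 (adjusted p = 0.0149). GLDN, gliomedin, read 6.67, 6.56 and 6.03 with punicalagin, 4.92 and 4.99 with myricetin, and 3.93, 3.62 and 4.13 with DMSO, a difference of 1.46 ± 0.23 (adjusted p = 0.0171). CXCR4, the receptor of the chemokine CXCL12, read 7.09, 7.16 and 6.42 with punicalagin, 5.16 and 5.69 with myricetin, and 5.80, 5.90 and 5.29 with DMSO, a difference of 1.46 ± 0.26 (adjusted p = 0.0280, 0.0709 with the block). Myricetin was at or below the DMSO level in ATP1B1 and CXCR4 and between the other groups in GLDN. FRRS1 (1.46 ± 0.26, adjusted p = 0.0281, 0.0639 with the block), a ferric reductase, and PRCP (1.42 ± 0.22, 0.0166), a lysosomal carboxypeptidase, completed the 15.

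Single members of further groups passed, where 0.695% of all genes tested were higher with punicalagin. The median differences of the NF-kB, iron, eicosanoid and hypoxia groups were 0.05, 0.04, 0.06 and 0.08, so these calls describe single genes. CD83, a surface marker of activated antigen-presenting cells, read 7.83, 8.06 and 7.85 with punicalagin and 7.01 and 7.05 with myricetin, and was the only call of 33 inflammatory NF-kB genes (0.88 ± 0.15, adjusted p = 0.0201, 0.0529 with the block). TFRC, the transferrin receptor, was the only call of 21 iron genes (0.85 ± 0.17, 0.0422 and 0.0928). PTGS1, the constitutive cyclooxygenase, was the only call of 16 eicosanoid genes (0.77 ± 0.15, 0.0397 and 0.0847). P4HA1, a prolyl hydroxylase of collagen, was the only call of 30 hypoxia and glycolysis genes (1.10 ± 0.21, 0.0351 and 0.0684). In P4HA1 the punicalagin arrays overlapped the DMSO arrays, and both myricetin arrays lay below every DMSO array. In each of these genes the compounds did not overlap, as in all 128 calls, and none kept the call with the block.

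The lower side was nearly empty. GRAMD1C, a sterol transfer protein of the ER, read 3.65, 3.42 and 3.67 with punicalagin, 4.45 and 4.40 with myricetin, and 4.31, 4.56 and 4.73 with DMSO. The punicalagin arrays were below all others and myricetin lay with DMSO, and the difference was -0.84 ± 0.15, or 1.8-fold (adjusted p = 0.0318, 0.0727 with the block). Its intensities were low for this array. No other gene passed, and 546 genes in all had an unadjusted p under 0.05 and a negative difference.

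Among the negative differences with the smallest p, 2 were immediate early genes. NR4A2, an orphan nuclear receptor, read 4.65, 4.47 and 5.01 with punicalagin, 6.33 and 5.76 with myricetin, and 6.62, 5.65 and 5.81 with DMSO, a difference of -1.33 ± 0.29 (adjusted p = 0.0580) that passed on the 5 arrays alone (0.0245). FOSB, a subunit of AP-1, read 5.08, 4.93 and 6.05 with punicalagin and 6.78 and 6.44 with myricetin, a difference of -1.26 ± 0.29 (adjusted p = 0.0744). In both genes the compounds did not overlap, and the passage 8 array was the highest of the punicalagin arrays. Of 24 immediate early genes none passed, and the median difference was -0.11. PPIP5K1, an inositol phosphate kinase, differed by -0.85 ± 0.18 (adjusted p = 0.0510). The remaining 7 of these 10 genes were PSMD11, MT1E, DNAJC5G, RAB31, LPXN, SLC2A7 and CHRND, none past the threshold.

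Metallothioneins, which bind zinc and copper, were tested with the zinc transporters, and none of the 23 genes passed. MT1E read 5.41, 4.96 and 5.17 with punicalagin and 5.89 and 5.87 with myricetin (-0.70 ± 0.16, adjusted p = 0.0784). MT2A read 8.32, 7.55 and 8.07 with punicalagin, 8.97 and 9.05 with myricetin, and 10.14, 9.47 and 9.24 with DMSO (-1.03 ± 0.27, adjusted p = 0.114), and passed with the passage block (0.0443). In MT1E and MT2A every punicalagin array was below both myricetin arrays. SLC39A10, a zinc importer, had a positive difference of 1.27 ± 0.26 (adjusted p = 0.0504).

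In most of the other groups no member passed in either direction. They were the aryl hydrocarbon receptor targets, antioxidant enzymes, interferon response, p53 targets, cell cycle, respiratory chain, ribosomal proteins, histones, box C/D and box H/ACA small nucleolar RNAs, complement and Fc receptors, serpins, MHC class II, toll-like receptors, PPAR coactivators, NADPH oxidase, and amino acid metabolism. Their median differences ran from -0.31 over 5 NADPH oxidase genes to 0.43 over 18 serpin and plasminogen genes. Of the small nucleolar RNAs, SNORA28 read 5.43, 7.36 and 6.24 with punicalagin and 4.69 and 4.72 with myricetin (1.64 ± 0.45, adjusted p = 0.135), and passed with the passage block (0.0284). Its punicalagin arrays spread more widely than the step between the groups.

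**Figure D3:**
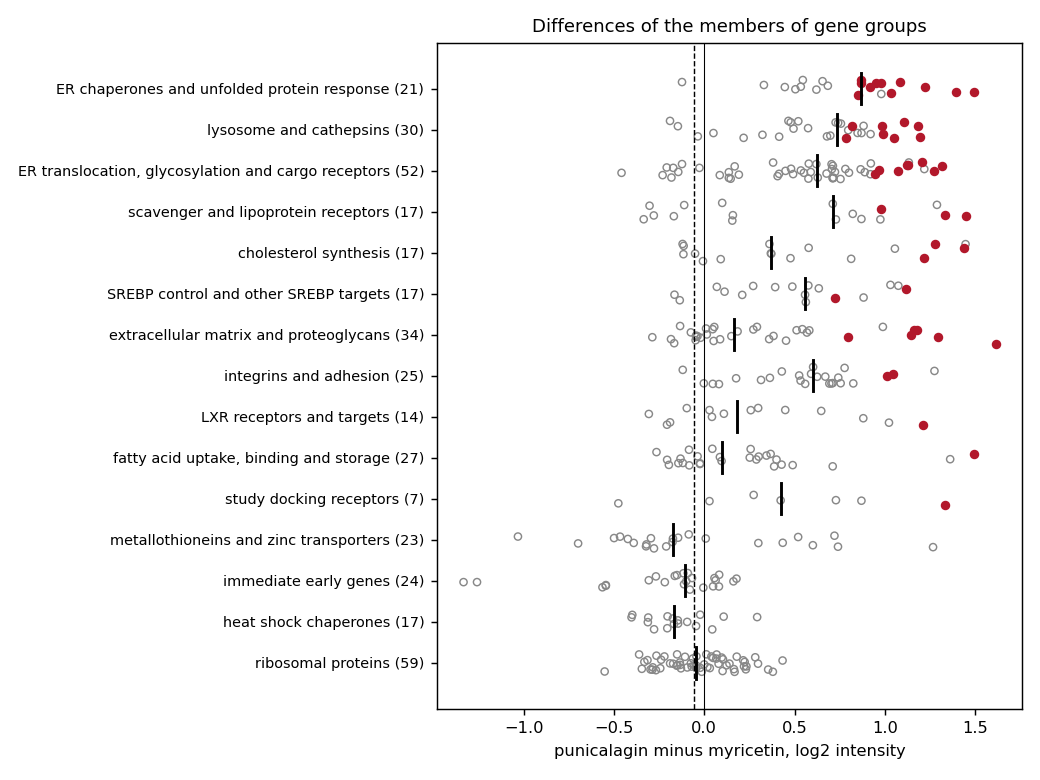
Difference of punicalagin minus myricetin in log2 intensity (horizontal axis) for each measured gene of 15 groups, with the number of genes in parentheses. Red points passed an adjusted p under 0.05, open points did not, the short bar is the median of the group and the dashed line the median of all genes. The ER chaperones have their median at 0.87 and the lysosomal genes at 0.73, against -0.05 over all genes.

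The difference was followed within passage 7 and within passage 8. Each compound has 1 array at a passage, so no test within a single passage was possible. At passage 7, 432 genes (2.35%) were at least 2-fold higher with punicalagin, and at passage 8, 96 genes (0.521%). The passages had 46 of these genes in common, which is 10.6% of the genes of passage 7 and 47.9% of those of passage 8. They include HSPA5, PDIA4, PDIA6, RPN1, SCARB2, LIPA, LRP1, GPC3, GPC4, EBP, CYP51A1, LAMC1, COL4A1, FBN2, TIMP2, ADAMTS1 and ALCAM. On the lower side 35 genes (0.19%) passed 2-fold at passage 7 and 65 (0.353%) at passage 8, with 2 in common, OR2L8 and REXO1L1P. OR2L8 and REXO1L1P passed limma's threshold with the passage block (adjusted p = 0.0427 and 0.0166) and not without it (0.345 and 0.547). Across the 18417 genes the differences of the passages correlated at 0.25 (Pearson), where genes are not independent replicates.

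**Figure D4:**
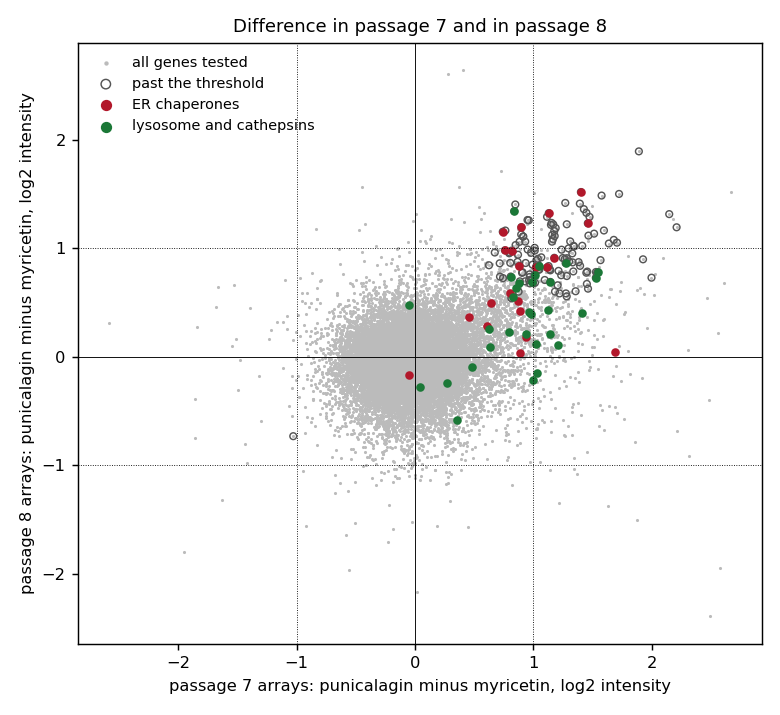
Difference of punicalagin minus myricetin in log2 intensity at passage 7 (horizontal axis) and at passage 8 (vertical axis), each point being a gene and each passage having 1 array per compound. Open circles are genes past the threshold, red and green points are all measured ER chaperones and lysosomal genes, and dotted lines mark 2-fold. In the upper right, 46 genes passed 2-fold at both passages.

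Over the whole table the distance between the compounds was close to that within them. The mean distance between arrays (1 minus Spearman's rho over 33297 transcript clusters) was 0.0165 between the compounds and 0.0164 within them, and an exact one-sided permutation over the 10 splits gave p = 0.3. The smallest possible value is 0.1, so this test could not have passed the threshold. The first principal component held 37.7% of the variance and set the punicalagin array of passage 7 apart at 53.9. The other punicalagin arrays lay at 0.73 and -9.36 and the myricetin arrays at -18.7 and -26.6, below all of them.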

How the data were processed

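From scanned Affymetrix Human Gene 1.0 ST arrays the authors deposited 1 log2 intensity per array and transcript cluster, made with RMA, which corrects the background, applies quantile normalization and summarises probes. Expression Console (Affymetrix), RMA and Partek 7.0 stand in the submitters' processing notes. Joint normalization of all 10 arrays is not stated in the sources used here. Of 33297 clusters, 19460 carry 1 gene symbol, 1754 several and 12083 none. Each of 18417 genes was read by its single-symbol cluster of highest mean, and 769 symbols were read by several clusters. No normalization or filter on dim genes was added. The number of arrays limits the precision.

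Punicalagin (3 arrays) was compared with myricetin (2 arrays) with limma 3.58.1 in R 4.3.3 (lmFit, eBayes) on all 10 arrays in 4 groups (6 residual degrees of freedom), two-sided, with Benjamini-Hochberg adjusted p over all genes and a threshold of 0.05. Intervals are 95% intervals of limma. P-values measure the spread between these arrays only. The fit was tested on simulated data, where 68 of 100 genes planted at 2-fold and 99 of 100 at 4-fold were called, with 11 false calls among 18417 genes. The simulated noise was normal and independent between genes and arrays, with no passage effect and no outlying array. These counts therefore check the procedure and do not give the error rate on the real arrays. The labels give the passage of each array, so arrays of passages 7 and 8 were paired by passage, and an alternative fit had passage as a replicate block. Array deviations from their group's mean correlated at 0.05 between the arrays of passage 7 and at -0.09 between those of passage 8. The punicalagin array of passage 6, which has no myricetin partner, gave -0.17 and 0.17. Deviations of the 2 myricetin arrays mirror each other by construction, so these values cannot decide whether arrays of a passage go together. Where the block changes the call of a named gene, the blocked value or the loss is given with it.

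The members, the 37 gene groups and the rule for naming genes were chosen with earlier results of these data known, and the group of ER translocation, glycosylation and cargo receptors after its values were seen. Groups are described by counts and medians, with no test. Named genes were the 15 largest rises and falls past the threshold with the same sign at both passages, up to 4 calls of each group (or the 2 with the smallest p), the 7 docking receptors, GAPDH, and, where under 10 genes passed in a direction, the 10 with the smallest p. Other genes are named as chosen after their values were seen or as members of a described group. Alternatives were other sets of arrays, the passage block, leaving out each array, trend and robust estimation, array weights, other sets of clusters, a filter on dim genes, repeated normalization, the methods' t-test and a 2-fold minimum. Promoter sequences are those of RefSeq on GRCh38.p14, and 14239 of the genes tested had a window.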

Additional observations from a re-analysis of the deposited data

How the results depend on the processing

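All values here are counts of genes higher and lower with punicalagin unless named otherwise, against 128 and 1. The passage as a replicate block gave 48 and 3, with 4 ER chaperones instead of 11 and 1 lysosomal gene instead of 8. The 8 arrays of passages 7 and 8 gave 47 and 3, with 4 ER chaperones and 0 lysosomal genes, and with the block 1 and 2. The 4 punicalagin and myricetin arrays of these passages gave 0 and 1 (limma), with 1807 genes at an unadjusted p under 0.05. The 5 arrays alone gave 149 and 2, and the fit without DMSO arrays 288 and 8. Trend and robust estimation gave 77 and 1, array weights 503 and 31, all clusters of the array 0 and 0 (2445 at an unadjusted p under 0.05), all clusters with a symbol 110 and 2, and genes above the median of all clusters 204 and 2. The methods' t-test gave 93 and 3 unadjusted with a 2-fold change and 0 and 0 after Benjamini-Hochberg, with 1474 genes at an unadjusted p under 0.05, and limma with a 2-fold minimum gave 74 and 0. Leaving out each array in turn gave 0 to 421 higher and 0 to 14 lower, 0 to 13 ER chaperones and 0 to 15 lysosomal genes. The counts were 0 without punicalagin replicate 1 or 2 (passages 6 and 7) or myricetin replicate 1 or 2 (passages 7 and 8). They were 333 and 14 without the DMSO array of passage 6, and 82 and 0 without either quercetin array. NR1H3, which did not pass, ranged from -0.025 to 0.083 when each array was left out and was negative without punicalagin replicate 3 or myricetin replicate 1. At 1.5-fold, 337 genes were higher at both passages in place of 46. The distance between minus within the compounds was 5.88e-05 and became 0.00216 in passages 7 and 8. Repeated quantile normalization, centring on the median and the mean of all clusters of a symbol gave 126 to 151 higher and 1 lower. The causes of these shifts were not tested, beyond the smaller number of arrays or the larger number of clusters that some settings bring by construction. With 2 myricetin arrays, a lone array left in a group was assumed to vary like the other groups.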

Other observations

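Of the 128 genes higher with punicalagin, 52 were in at least 1 gene group and 76 in none. The genes named here were chosen after their values were seen. B2M, the light chain of MHC class I, read 11.19, 11.14 and 10.85 with punicalagin, 10.02 and 10.01 with myricetin, and 10.61, 10.43 and 10.45 with DMSO. The punicalagin arrays were above and the myricetin arrays below every DMSO array, and the difference was 1.05 ± 0.15 (adjusted p = 0.0149). CD46, a complement regulator, read 9.10, 9.13 and 9.15 with punicalagin and 8.21 and 8.04 with myricetin (adjusted p = 0.0397), with nearly equal punicalagin arrays. APP, the amyloid precursor protein, differed by 1.11 ± 0.18 (adjusted p = 0.0177, 0.0526 with the passage block), INSR, the insulin receptor, by 1.11 ± 0.22 (0.0445, 0.0531 with the block), and ATP1B3, another beta subunit of the sodium pump, by 1.32 ± 0.26 (0.0422).

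Lipid genes outside the groups were also called. LIPG, endothelial lipase, read 6.49, 6.49 and 5.90 with punicalagin, 5.04 and 5.12 with myricetin, and 4.04, 4.06 and 4.40 with DMSO. CES1, a carboxylesterase, read 8.57, 8.67 and 8.37 with punicalagin, 7.51 and 7.30 with myricetin, and 8.59, 8.51 and 7.98 with DMSO. Myricetin stood between the other groups in LIPG and below all DMSO arrays in CES1, where punicalagin overlapped with DMSO. The differences were 1.21 ± 0.19 for LIPG (adjusted p = 0.0171, 0.0531 with the block) and 1.13 ± 0.19 for CES1 (0.0213). GPNMB, a glycoprotein of lysosomes and the cell surface, read 11.24, 11.19 and 10.67 with punicalagin, 9.94 and 9.76 with myricetin, and 9.49, 8.90 and 9.16 with DMSO. Its 3 groups did not overlap, and the difference was 1.18 ± 0.21 (adjusted p = 0.0260, 0.0529 with the block).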
